A study of Mus musculus with 8 samples.

Results

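Sirtuins are deacylases that consume NAD+ each time they remove an acyl group from a protein, so their activity is tied to the cell's supply of this cofactor. Nampt, nicotinamide phosphoribosyltransferase, makes nicotinamide mononucleotide from the nicotinamide that sirtuins and other enzymes release, and is the rate-limiting enzyme of that salvage route. Cd38 and Bst1 (CD157) are related ectoenzymes that split NAD+ into nicotinamide and ADP-ribose or cyclic ADP-ribose, and both are known from cells of the immune system. The 10 genes described here are the 7 sirtuins (Sirt1 to Sirt7), Nampt, Cd38 and Bst1. They were taken by name, with no use of measured values, as every non-control probe of the array whose gene name is one of the 10, which gave 21 of 56605 probes. Of these probes 18 could be tested, and they covered 9 of the 10 genes, among 20210 genes tested in all. The gene left out was Bst1.

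The cells were cardiac mesenchymal stromal cells (cMSCs), a fibroblast-like population of the heart, sorted here from digested ventricles as cells that carry Sca-1 and PDGFRα and lack the leukocyte marker CD45 and the endothelial marker CD31. RNA came from 4 pools of young male C57BL/6 mice, 5 months of age by the labels, and 4 pools of aged male C57BL/6 mice, 20 months of age. A pool held 3 mice, although the label of aged replicate 4 carries a code that may stand for 2, and replicates carry the numbers of the labels (2 to 5 in young, 1 to 4 in aged). No group carried a treatment or transgene by the labels, and the cells were not cultured between the sort and lysis. The question put to these arrays was which transcripts of cMSCs change with age.

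The RNA of every pool went onto a separate Agilent array read in 1 colour. A level below is log2 of the processed signal, an intensity with the background subtracted, minus log2 of that array's 75th percentile, and a fold change is the difference of such levels, aged minus young. Levels of different probes have no common scale and are not set against each other. Transcripts of Ly6a (Sca-1) and Pdgfra, the genes of the sort, were well above background on all 8 arrays, and so were Ptprc (CD45) and Pecam1 (CD31), the genes of the markers sorted against. In pooled RNA, fewer cells of a type and less RNA per cell cannot be told apart. A gene is called when its p from limma, adjusted over all genes tested by the Benjamini-Hochberg method, is under 0.05.

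None of the 9 members tested passed, while 616 of 20210 genes did (3.05%). None of the 9 reached an unadjusted p of 0.05 in limma either, a level that 13.9% of all genes reached. At the study's own thresholds, p up to 0.01 before adjustment together with a log2 difference past 0.5, none of the 9 was called, against 4.48% of all genes. The young and aged pools overlapped for all 9 members, and they did not overlap for 10.4% of all genes. The median absolute log2 fold change was 0.035 over the members and 0.11 over all genes. The spread between pools of a group was like that of other genes, with a median SD of 0.18 over the members and 0.18 over all genes. Of the fold changes, 7 were above 0 and 2 below, and the 95% confidence intervals of all 9 included 0. Leaving Cd38 aside, these intervals ran from 0.748-fold (log2 of -0.42) at the lowest to 1.28-fold (0.35) at the highest. A change beyond those bounds was outside the interval of the probe that stands for each of those 8 genes, and smaller changes remain possible. Other kept probes of the same genes reached further, with log2 intervals of -0.61 to 0.45 for Sirt1, -0.11 to 0.53 for Sirt4 and 0.14 to 0.59 for Sirt7.

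**Figure D1:**
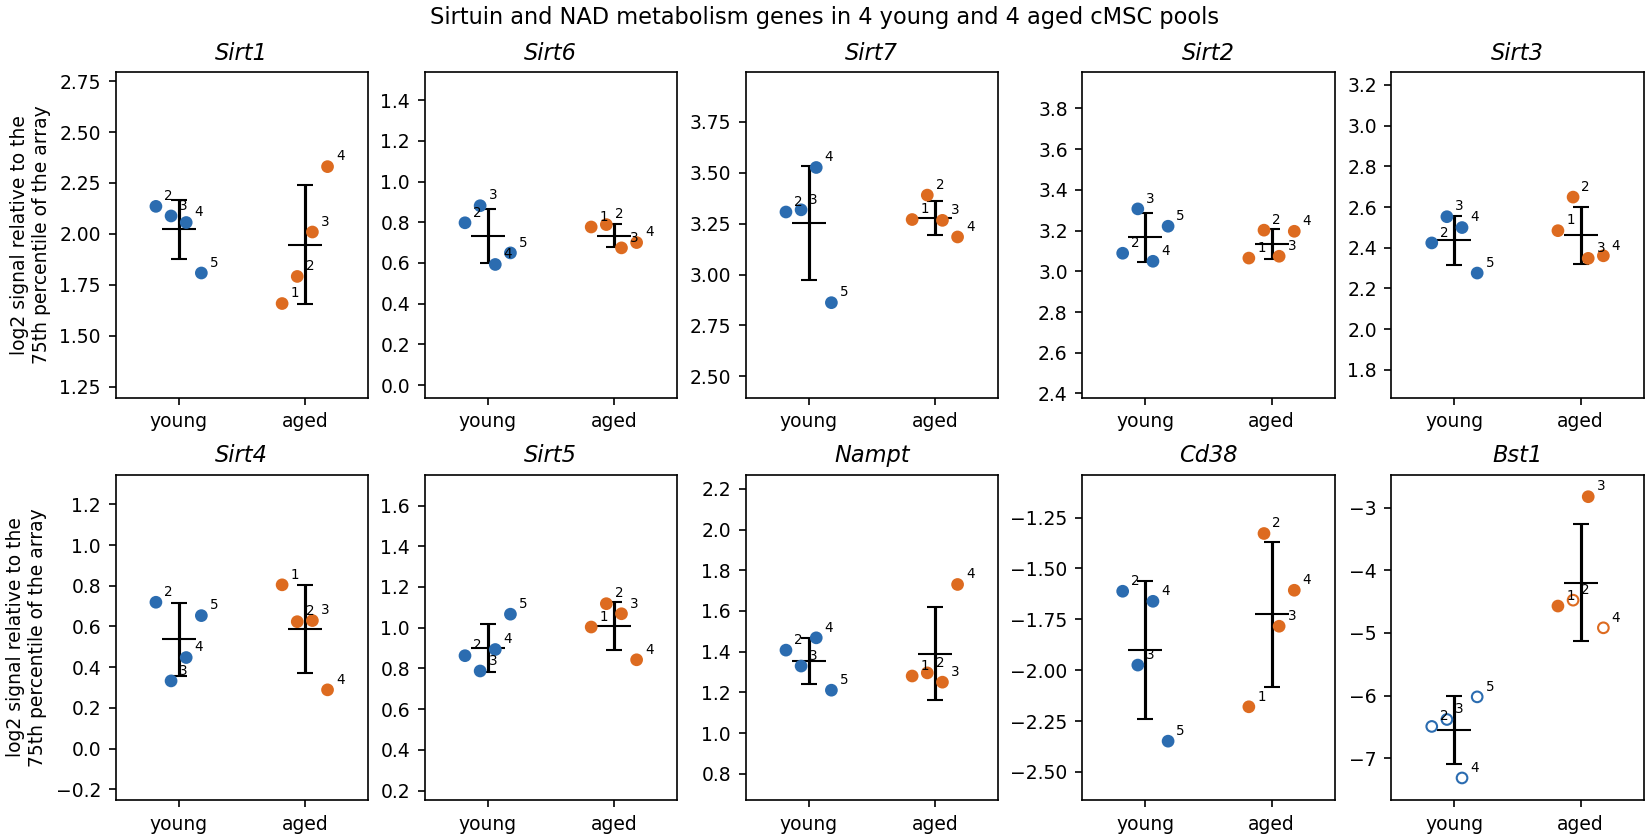
Level of each gene in each pool, as log2 signal against the array's 75th percentile (vertical axis), for young (blue) and aged (orange) pools with replicate numbers beside the points. Horizontal bars are means and error bars are SDs (n = 4), open points are arrays on which the probe was not well above background, every panel but that of Bst1 spans the same 1.6 log2 units, and only the groups of Bst1 do not overlap.

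Sirt1, Sirt6 and Sirt7 are the sirtuins of the nucleus, Sirt7 being concentrated in the nucleolus. Sirt1, which deacetylates p53, FoxO factors and PGC-1α, was measured at 2.14, 2.09, 2.06 and 1.81 in young replicates 2 to 5 and at 1.66, 1.79, 2.01 and 2.33 in aged replicates 1 to 4. The aged pools thus held both the lowest and the highest Sirt1 level of the 8. The log2 fold change of Sirt1 was -0.07 ± 0.15 (SE, limma adjusted p = 0.915). A second Sirt1 probe, 3128 bases upstream, gave -0.08 ± 0.23.

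Sirt6, a histone H3 deacetylase of telomeres and DNA repair, had the smallest difference of the members. The young pools averaged 0.73 ± 0.13 (SD, n = 4), against 0.73 ± 0.056 (SD, n = 4) for the aged pools, with a log2 fold change of 0.0047 ± 0.088 (SE). The other Sirt6 probe was well above background on 1 young and 2 aged arrays and was not tested.

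Sirt7, which removes acetyl groups from lysine 18 of histone H3, has 5 probes on the array, more than any other member. The probe that stands for the gene, A_51_P352264, was measured at 3.31, 3.32, 3.53 and 2.86 in the young and at 3.27, 3.39, 3.27 and 3.18 in the aged replicates. Young replicate 5 was the lowest pool and young replicate 4 the highest, and all aged pools lay between them. Its log2 fold change was 0.02 ± 0.14 (SE, limma adjusted p = 0.975). Without young replicate 5 it was -0.11, again not called.

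One Sirt7 probe stood apart from the other 4. Probe A_55_P2045693 is assigned by the array files to a separate transcript, ENSMUST00000154714, and was measured at -1.23, -1.38, -1.10 and -1.28 in young and at -0.85, -1.05, -0.88 and -0.74 in aged replicates. The 4 aged values were the 4 highest. Its log2 fold change was 0.37 ± 0.10 (SE), with an exact two-sided permutation p of 0.029, the smallest that 4 pools against 4 can give. The unadjusted p in limma was 0.0050, and over all 30824 kept probes it was adjusted to 0.109, so that the probe was not called. It was the only 1 of the 18 kept member probes under an unadjusted p of 0.05, a level that 13.5% of all kept probes reached, and 2.43% of all kept probes passed after adjustment. The log2 fold change of this probe was 0.53 between the pools on the first row of the slide and 0.20 between those on the second, and its adjusted p was 0.0923 to 0.455 over the alternatives tried.

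The other Sirt7 probes had log2 fold changes of -0.06 to 0.04, and each of their limma adjusted p values was over 0.9. All 5 probes target the minus strand of chromosome 11 on mm9, and the deviating one lies 727 bases upstream of the probe nearest the 3′ end. Probes are 60 bases long, and bases 16 to 45 of each are shown here in transcript sense so that the deviating target can be told from the others.
A_51_P352264, the 3′-most, chr11:120479736-120479795, NM_153056: ttatagaagcctttttctgtattgggtatg
A_55_P2045693, the deviating probe, chr11:120480463-120480522, ENSMUST00000154714: gtgtcactgacgctgcttccagccaaagcc
A_55_P2714777, chr11:120483505-120483564, ENSMUST00000130743: atctctttttgtccgaatgtgcaggcagct
A_55_P2714782, chr11:120484733-120484792, ENSMUST00000153018: acaacaaaggtgggggaggcagtgagaagc
A_55_P2045697, the 5′-most, chr11:120485809-120485868, NM_153056: tccgaagtgccaggcacttggttgtctaca
Whether these targets are exonic, intronic or untranslated in each transcript was not analysed here, since no annotation of mm9 was used. Both outermost probes carry the identifier of the same RefSeq transcript, and their fold changes were 0.02 and 0.01.

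**Figure D2:**
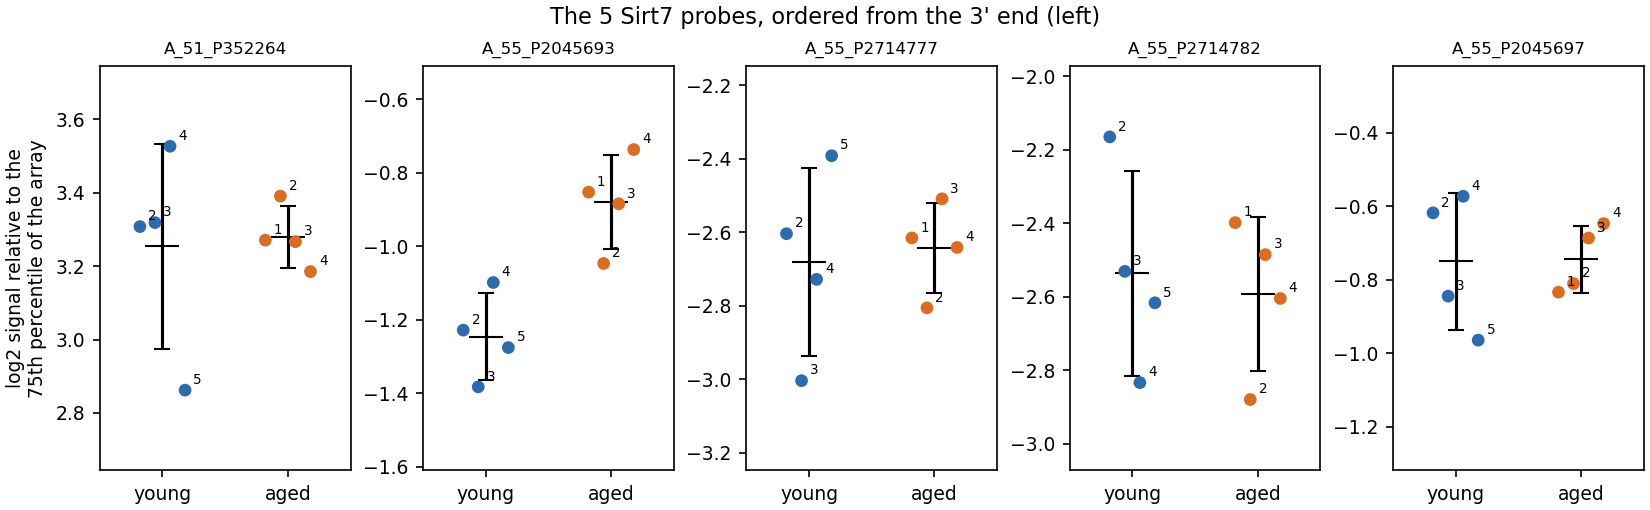
Level of the 5 Sirt7 probes in each pool, as log2 signal against the array's 75th percentile, ordered from the 3′ end of the gene on the left, each panel spanning 1.1 log2 units. Bars are means and error bars SDs (n = 4), and the groups separate only for A_55_P2045693, where the aged pools lie between -1.05 and -0.74 and the young pools between -1.38 and -1.10.

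Sirt2 is the mainly cytosolic sirtuin and deacetylates α-tubulin. It varied least of all members within groups, with young pools at 3.17 ± 0.12 (SD, n = 4) against 3.13 ± 0.075 (SD, n = 4) for aged pools, and its log2 fold change was -0.03 ± 0.087 (SE, limma adjusted p = 0.941). The 8 pools lay between 3.05 and 3.31, and both ends of that range were young pools. A second Sirt2 probe, whose 60 bases are spread over 1626 bases of chromosome 7, gave -0.09 ± 0.080.

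Sirt3, Sirt4 and Sirt5 are the mitochondrial sirtuins. Sirt3, the main mitochondrial deacetylase, stood at 2.44 ± 0.12 (SD, n = 4) over the young pools against 2.46 ± 0.14 (SD, n = 4) over the aged pools, with a log2 fold change of 0.02 ± 0.10 (SE). Its second probe, assigned to a cDNA clone and 17430 bases upstream, gave -0.05 ± 0.12, so the signs of the pair differed while both intervals included 0. Sirt4, which acts as an ADP-ribosyltransferase and lipoamidase, gave 0.05 ± 0.13 with the probe that stands for it, and 0.02 ± 0.15 and 0.21 ± 0.14 with the others. The last of these is the 5′-most Sirt4 probe, with a limma unadjusted p of 0.177.

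Sirt5 removes succinyl, malonyl and glutaryl groups from proteins. It was measured at 0.86, 0.79, 0.89 and 1.07 in young replicates 2 to 5 and at 1.003, 1.12, 1.07 and 0.84 in aged replicates 1 to 4. The highest young pool was above 2 of the aged pools. Sirt5 had a log2 fold change of 0.11 ± 0.095 (SE, limma adjusted p = 0.753), which was -0.0040 on the first and 0.22 on the second row of the slide. With single pools left out it ranged from 0.067 (without young replicate 3) to 0.161 (without aged replicate 4). A Sirt5 probe for a predicted transcript variant was not well above background on any of the 8 arrays.

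**Figure D3:**
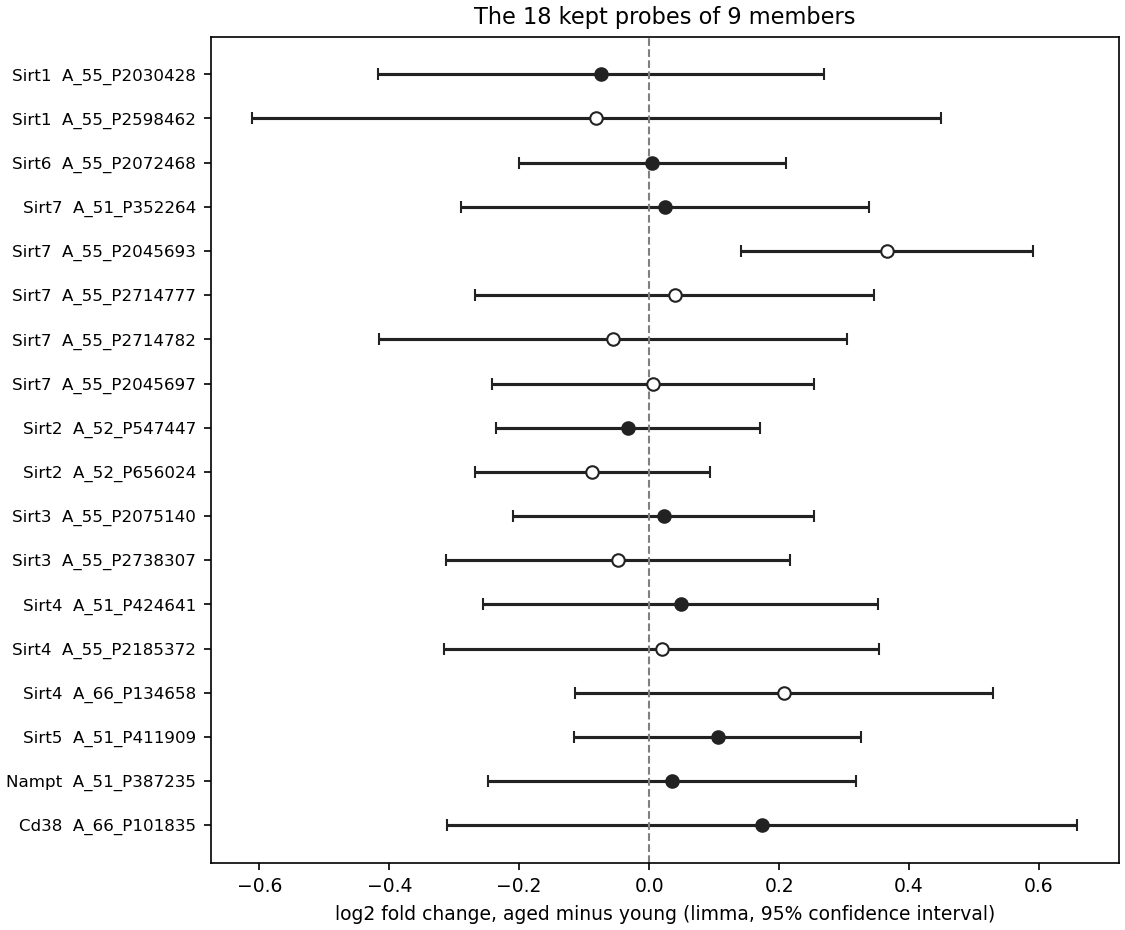
Log2 fold change, aged minus young, of the 18 kept probes of 9 members (horizontal axis) with 95% confidence intervals from limma fitted on all kept probes. Filled points are the probes that stand for their gene and open points the others, and the interval excludes 0 only for Sirt7 probe A_55_P2045693, at 0.14 to 0.59 before adjustment over probes.

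Nampt, the enzyme that feeds the salvage route, was measured at 1.41, 1.33, 1.47 and 1.21 in young replicates 2 to 5. In aged replicates 1 to 4 it was 1.28, 1.30, 1.25 and 1.73. Aged replicate 4 was the highest of all pools, and the other aged pools lay within the young range. On the log2 scale the fold change of Nampt was 0.04 ± 0.12 (SE, limma adjusted p = 0.957), and without aged replicate 4 it was -0.08. It was 0.24 on the first row of the slide, which holds aged replicate 4, and -0.16 on the second.

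Cd38, a glycohydrolase that consumes NAD+, had the largest fold change and the widest interval of the 9 members tested. It was measured at -1.61, -1.98, -1.66 and -2.35 in young and at -2.18, -1.33, -1.78 and -1.61 in aged replicates. The lowest pool was young replicate 5 and the next lowest aged replicate 1, so the groups overlapped over most of their range. For Cd38 the log2 fold change was 0.17 ± 0.21 (SE, limma adjusted p = 0.844), with a 95% interval of -0.31 to 0.66, which is 0.804-fold to 1.58-fold. Its values within slide rows were 0.27 and 0.081, and it was 0.025 without young replicate 5, 0.042 without aged replicate 2, 0.27 without young replicate 2 and 0.33 without aged replicate 1. Of 15124 tested genes with a symbol, the ones whose deviations from the group means followed those of Cd38 best over the 8 pools were Ushbp1 (Pearson r = 0.994) and Dcbld1 (r = 0.990). Both are the highest of many correlations over 8 points that share their arrays, and neither gene was called (limma adjusted p = 0.918 and 0.705). Young replicate 5 was the lowest pool for 4 of the 9 members, Sirt3, Sirt7, Nampt and Cd38. How often that pool was the lowest over all genes was not counted, so this is not read as a trait of the members.

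Bst1 was not well above background on any young array and was well above it on aged replicates 1 and 3. Its measured levels, mostly at or under the detection limit, were -6.49, -6.38, -7.32 and -6.02 in young and -4.57, -4.48, -2.82 and -4.92 in aged replicates. All aged pools were above all young pools, and aged replicate 3 was the highest. The mean aged level of Bst1 was 1.41-fold above the lowest signals that counted as well above background on the young arrays. Only 2 of the 4 aged arrays measured Bst1 and the mean took in the others, so this ratio is not a lower bound on a rise. The ratio rests on single pools, since it was 1.02-fold without aged replicate 3 and 1.22-fold without young replicate 4. Without a filter on dim probes, the measured signals gave a log2 fold change of 2.36 with a limma adjusted p of 0.119 (0.0012 unadjusted). The authors' log2 table gave 0.62 ± 0.18 (SE) with a limma adjusted p of 0.133 (0.0065 unadjusted). Neither passed after adjustment, though both were past the study's own thresholds. How many of all genes were past those thresholds in these fits was not counted. None of these p values tests the 1.41-fold ratio.

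The Bst1 and Cd38 probes lie 69.3 kb apart on chromosome 5 of mm9, and their central 30 bases show the targets of the neighbouring genes.
Bst1, A_51_P499838, chr5:44233465-44233524, NM_009763: cagttgtatttacactcatgattcaagaaa
Cd38, A_66_P101835, chr5:44302865-44302924, NM_007646: aggattctaggtttctccctgagccctgct
Since both enzymes are also found on leukocytes, the markers of such cells are given beside them. Of 8 neutrophil markers 7 were tested and 3 rose in aged pools (S100a9, Ly6g and Camp), and of 15 macrophage and monocyte markers 12 were tested and 1 rose (Cd14). Sums of marker signals follow their brightest probe, so they are given as descriptions, with and without it. For neutrophils the sum on the linear scale was 93.1 to 127 in young and 80.8 to 135 in aged pools, of which Csf3r made up 88.5% to 97.8%. Without Csf3r it was 2.76 to 3.97 against 5.38 to 15.5, with no overlap. That sum includes S100a9, Ly6g and Camp, so its separation is not independent of their calls. The other tested neutrophil markers were not called, with log2 fold changes of 2.48 (S100a8), 0.41 (Mmp8), 0.05 (Elane) and -0.08 (Csf3r). The paper lists S100a9 among the genes raised in its aged sorted cMSCs. For macrophages it was 38.9 to 57.5 against 48.4 to 71.6, and 9.10 to 15.3 against 12.6 to 19.2 without Itgam. Of the 6 B cell markers, 3 were tested and none passed, with a sum of 0.355 to 0.700 in young and 0.504 to 0.759 in aged pools. Of 8 T and NK cell markers 5 were tested and 1 rose (Cd2), with a sum of 2.28 to 3.30 against 2.70 to 3.02, and Cd3g, Nkg7, Ngp and Fcgr1 were not well above background on any array. The part of such cells in the Bst1 and Cd38 signals was not tested.

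Other genes of the pathway were described with 5 lists. No gene of these lists passed, of 83 tested beside the members. An unadjusted p under 0.05 was reached by 12 of the 83, which is 14.5% against 13.9% of all genes, and the groups did not overlap for 11 (13.3% against 10.4%). The median log2 fold change of the lists was between -0.03 and 0.04, beside -0.0053 over all genes tested.

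Of 16 genes of NAD salvage and synthesis, Nampt among them, 15 were tested and none passed, with a median log2 fold change of 0.03. The member of this list nearest to the threshold was Nmnat3, the mitochondrial enzyme that joins nicotinamide mononucleotide to ATP. It was measured at 1.67, 1.46, 1.48 and 1.19 in young and at 1.84, 1.88, 1.92 and 2.07 in aged replicates, and the aged values were again the 4 highest. This log2 fold change was 0.47 ± 0.11 (SE, limma adjusted p = 0.0663). Its 2 other kept probes gave 0.43 and 0.11. Nmnat3 was past the threshold under quantile normalization (limma adjusted p = 0.0487), normexp background correction (0.0206), limma's trend and robust options (0.0304) and in the authors' log2 table (0.0336). It was not past it under median scaling (0.135), without a filter on dim probes (0.247) or with the mean of its probes (0.102). Nor was it with a block for replicate number (0.386), pool code (0.137) or slide row (0.0762), or with any single pool left out (0.0558 to 0.161).

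Nmnat1, the nuclear form of the same enzyme, lay the other way. It is named after its values were seen, because it was called without young replicate 5. It was measured at 0.0097, 0.17, 0.036 and -0.33 in young and at -0.42, -0.33, -0.41 and -0.35 in aged replicates, with young replicate 5 next to the aged pools. Nmnat1 had a log2 fold change of -0.35 ± 0.11 (SE, limma adjusted p = 0.166), and without young replicate 5 it was -0.45 (adjusted p = 0.0312). A second kept probe of Nmnat1 gave -0.20 ± 0.16 with all pools (SE, limma p adjusted over probes = 0.697). Whether Nmnat1 and Nmnat3 differ in their fold changes was not tested. Nmnat2 gave -0.07.

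Nt5e (CD73), an ectoenzyme that removes phosphate from AMP and from nicotinamide mononucleotide, was measured at 0.79, 0.66, 0.85 and 0.078 in young and at -0.26, 0.30, -0.29 and -0.13 in aged replicates. Young replicate 5 lay within the aged range, and the other 3 young pools were above all aged pools. Nt5e had a log2 fold change of -0.69 ± 0.20 (SE, limma adjusted p = 0.122), and without young replicate 5 it was -0.86 (adjusted p = 0.0371). Slc12a8, Naprt and the NAD kinases were also in this list and did not pass.

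Of 11 genes of the kynurenine pathway, by which NAD+ is made from tryptophan, 5 were tested. Haao (0.12 ± 0.16, SE) and Afmid (0.082 ± 0.17, SE) had the largest log2 fold changes of the 5. The other 6 genes, among them Ido1, Ido2, Kynu and Acmsd, were not well above background on all arrays of either group.

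Other enzymes that consume NAD+ or modify nicotinamide, mostly poly- and mono-ADP-ribosyltransferases, made up 25 genes, of which 24 were tested and none passed. All 4 of them with an unadjusted p under 0.05 were higher in aged pools (Parp8, Parp12, Parp14 and Parp16), which is 16.7% of the list against 13.9% of all genes. Of the 2807 such genes over the whole array, 1628 were higher in aged pools. Parp16, a mono-ADP-ribosyltransferase of the endoplasmic reticulum, was measured at -0.34, -0.58, -0.55 and -0.77 in young and at -0.19, -0.28, -0.085 and 0.00017 in aged replicates, without overlap. Its log2 fold change was 0.42 ± 0.11 (SE, limma adjusted p = 0.0902), and a second probe gave 0.33. For Parp14 the log2 fold change was 0.29 ± 0.12 (SE, limma adjusted p = 0.308).

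Of 31 partners and substrates of sirtuins 30 were tested and none passed, with a median log2 fold change of -0.03. Foxo4, a FoxO transcription factor, gave 0.67 ± 0.23 (SE, limma adjusted p = 0.195) from a dim probe that was well above background on 2 of the 4 young arrays. Its log2 fold change was 0.16 with normexp background correction, 0.21 in the authors' table, and 1.09 and 0.25 within the slide rows, so its size is uncertain. Acss1, the mitochondrial acetyl-CoA synthetase that Sirt3 deacetylates, was measured at -0.77, -0.77, -0.40 and -0.95 in young and at -1.26, -1.17, -1.23 and -0.94 in aged replicates. The ranges of Acss1 overlapped at young replicate 5 and aged replicate 4, and its log2 fold change was -0.43 ± 0.13 (SE, limma adjusted p = 0.146).

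Histone deacetylases of the other classes work with zinc and without NAD+, and were included for comparison. Of 11, 10 were tested and none passed, with a median of -0.02. With all pools, the largest log2 fold changes were those of Hdac7, -0.26 ± 0.090 (SE, limma adjusted p = 0.215), and Hdac4, -0.26 ± 0.12 (SE, limma adjusted p = 0.398), both of class IIa. For each of them all aged pools were below all young pools, by very little. The nearest pools were 4.3655 (young replicate 3) and 4.3653 (aged replicate 2) for Hdac7, and 0.514 (young replicate 3) and 0.509 (aged replicate 1) for Hdac4. They were the 2 genes without overlap of the 10 tested (20%), against 10.4% of all genes. Without young replicate 5, the highest Hdac4 pool, Hdac4 gave -0.14.

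**Figure D4:**
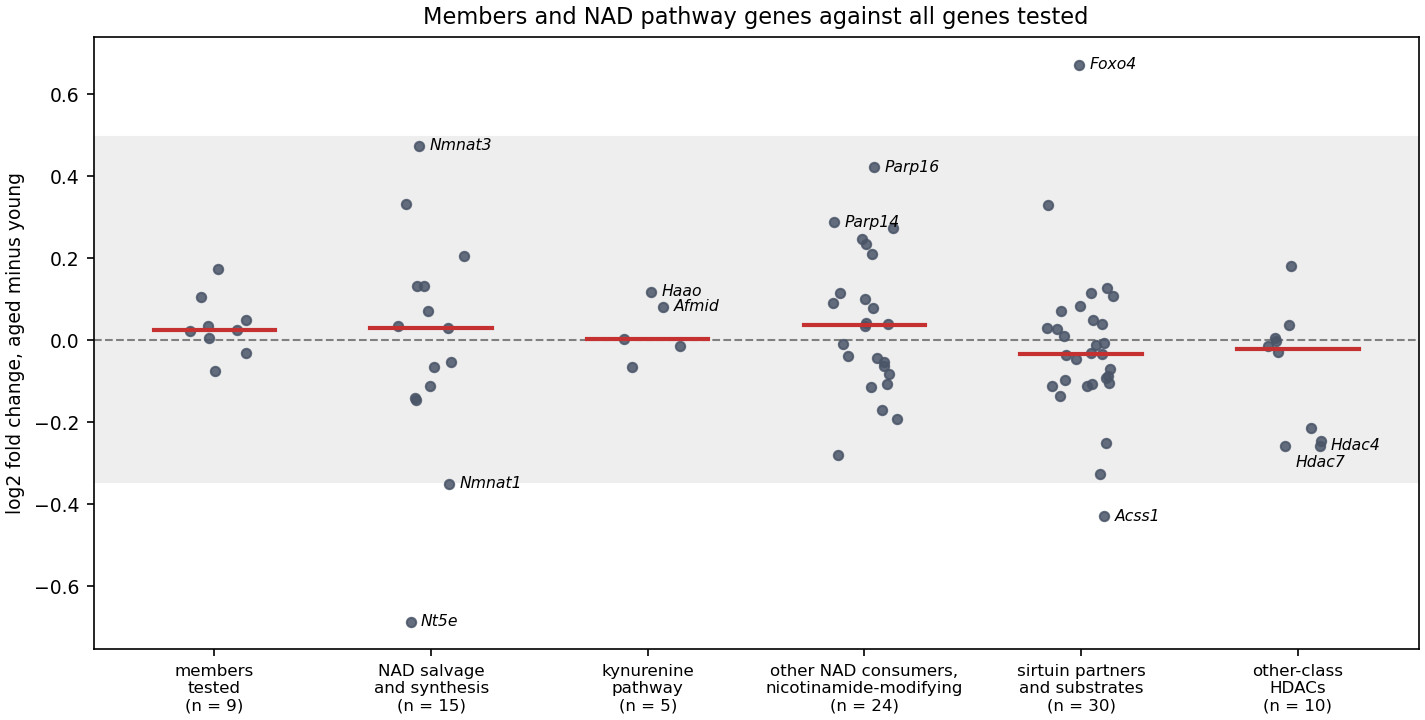
Log2 fold change, aged minus young, of each tested gene (points) among the members and in 5 lists, with the median of each as a red line. The grey band holds the 5th to 95th percentile of all 20210 genes tested, -0.34 to 0.50, and all 9 members lie inside it, from -0.07 to 0.17.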

How the data were processed

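Scanner output was deposited for every array. Its processed signals are linear intensities from Agilent Feature Extraction 10.10.1.1, with the background already subtracted by the authors' software and nothing done yet to make arrays comparable. The authors deposited log2 values of the arrays as well, in a quantile-normalized table of 33363 probes with a median of 8.12 on each array. Its columns correlated best with their own arrays (r of 0.991 to 0.994), and it served as an alternative. No filter behind it is given by the sources used here. The submitters' processing notes name limma. The study used 2 mouse lines, and the line of these pools is not stated.

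Control spots and outlier spots were left out, spots of a probe were averaged, and log2 signals were set against the array's 75th percentile over probes (328 to 546 on the linear scale). A probe was kept if every array of 1 group or of both (4 arrays each) showed it well above background, and the probe with the highest mean stood for a gene. Symbols came through accessions from a table of GRCm38.p6, used for names alone, for 33903 of 56605 probes, and from the array files otherwise. No spot was saturated. Spots well above background made up 57.8% to 63.4% of an array, and spike-in controls had an R² of 0.992 to 0.996. The 8 arrays shared 1 slide, with 2 pools of each group on each of its 2 rows, and 1 scan date. Their number limits the precision. Pools are separate samples by the labels.

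The fit used limma 3.58.1 under R 4.3.3 (lmFit, then eBayes; residual degrees of freedom 6, prior 2.66), after a test on simulated data. Tables were made with pandas 2.3.3, numpy 2.4.6 and scipy 1.17.1. For the Bst1 ratio, each young array gave the lowest signal that counted as well above background, or the probe's signal where that was higher. Each aged array gave the measured signal, whether or not it was well above background. The genes named are all members with every probe, up to 4 genes a list that passed or the 2 with the largest fold change where none did, and the 2 genes most like the member with the largest fold change. The members and lists were chosen with earlier results of these data known. Alternatives covered scaling, background correction, the filter, the probe rule, blocks, limma options, the study's thresholds, the authors' table and each pool left out. Scaling to the percentile over spots and probes in place of genes were added after seeing the data.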

Additional observations from a re-analysis of the deposited data

Results flagged for a closer look

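Of 62 groups of 4 pools examined for a pool far from the rest, 3 were marked, about as many as the 1 in 20 that chance gives. Nampt in aged pools had a gap of 0.905 of the group's range (Dixon's test at 95%), because aged replicate 4 lay at 1.73 and the other aged pools at 1.25 to 1.30. The Sirt4 probe A_55_P2185372 in aged pools had a gap of 0.961, with aged replicate 2 at -1.67 and the others at -1.34 to -1.33. Hdac4 in young pools had a gap of 0.842, with young replicate 5 at 1.02. Bst1, which did not pass the filter on dim probes, was well above background on 2 aged arrays and on none of the young arrays.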

How the results depend on the processing

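None of the 9 members tested passed under any alternative run. Their lowest adjusted p was 0.466, and 24 of their 180 values changed sign, none of them called. Bst1 was fitted only without a filter on dim probes (limma adjusted p = 0.119) and in the authors' table (0.133). With median scaling, Sirt3 (-0.016), Sirt6 (-0.034), Sirt7 (-0.014) and Nampt (-0.0036) fell below 0; the mean of probes gave Sirt3 -0.012 and the authors' table Sirt4 -0.0017. Leaving out each pool in turn gave log2 fold changes of -0.20 to 0.022 for Sirt1, -0.071 to 0.015 for Sirt2, -0.040 to 0.061 for Sirt3, -0.024 to 0.15 for Sirt4, -0.041 to 0.055 for Sirt6, -0.11 to 0.12 for Sirt7, -0.078 to 0.082 for Nampt, -0.026 to 0.19 for Haao and -0.025 to 0.21 for Afmid. The cause was not tested.

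Of the pathway genes, 1 passed (Nmnat3) under quantile normalization, normexp correction, in the authors' table, with trend and robust options, 1 (Nt5e) at the study's thresholds, and 0 to 2 with a pool left out. Over all genes, 454 were higher and 162 lower in aged pools. Without a filter on dim probes, where more genes were tested, the counts were 167 and 37, and at the study's thresholds 269 were lower. With 1 pool left out they were 251 to 347 and 70 to 154, below the full counts by over 1.5 times in at least 1 direction without young replicate 2, 3 or 4 or aged replicate 1 or 3.

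Pools with the same number, whose pool codes were also taken as matching, had correlations of their deviations of 0.18 (number 2), -0.17 (3) and -0.27 (4). Young replicate 5 and aged replicate 1, which match in code alone, had 0.14, and pools that match in neither reached 0.34. So few pairs cannot show whether young and aged pools were paired. With the number as a replicate block 14 genes were higher and 2 lower, and Sirt2 was 0.0094, Sirt3 -0.039, Sirt6 -0.036 and Sirt7 -0.10. In that fit young replicate 5 and aged replicate 1 stand alone in their blocks, so the fold changes come from numbers 2, 3 and 4. With the pool code as a block the counts were 207 and 52. Bst1 is limited by its signal over background.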
